A study of Homo sapiens with 12 samples.

Results

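The 48 protein-coding genes whose symbols start with NDUFA, NDUFB, NDUFC, NDUFS, NDUFV or NDUFAF were followed across 12 RNA-seq libraries labelled HCT116, an established human colorectal cancer line. They were chosen by symbol alone, without pseudogenes, and make up 48 of the 63677 Ensembl identifiers in the deposited table. By role they divide into 37 subunits of respiratory complex I, 8 assembly factors, NDUFA4 and NDUFA4L2, which carry the name without being subunits, and the readthrough gene NDUFC2-KCTD14. PolyA RNA was sequenced from 4 groups of 3 libraries, each group named for the construct its cells carry.

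The mCherry cells carry a fluorescent protein and serve as the control. The CR3 cells carry a peptide, and the scramble and reverse cells carry variants of it, with no sequence stated for either. Every group received doxycycline, which switches the constructs on, at a concentration the labels write as 1 ug/ul and at a time they write as 48 before extraction, with no unit, so no library shows cells without the drug. All were grown in DMEM with 10% FCS. The submitters speak of cell clones, and neither the number of clones in a group nor whether libraries came from separate cultures is given, so the p-values below measure only the spread between these libraries. In bulk RNA, fewer cells of a type and less RNA per cell cannot be told apart.

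Complex I takes electrons from NADH and passes them to ubiquinone, while pumping protons across the inner mitochondrial membrane. Its N module binds NADH, its Q module hands the electrons on, and its proximal and distal membrane arms hold the pumps, whose core is encoded in mitochondrial DNA. The nuclear genes supply the remaining core subunits and the accessory subunits, and assembly factors join the modules without staying in the finished enzyme.

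The binding motifs most often tied to nuclear respiratory genes are those of ETS factors, YY1, NRF1 and SP1, and the windows around the start sites of these genes were searched for their letters. The RefSeq table (GRCh38.p14, from 250 bases before to 50 after each start) held 52 windows of 40 of the 48 genes. Both strands were searched. ATGGCG, the YY1 core, was in 22 of the 52 windows (42.3%) and in 10.7% of all 35116 windows in the table. In 17 of the 52 member windows (32.7%, against 4.3% of all windows) a YY1 match lay in the 50 bases after the start. In 14 of them it was there in the sense direction, where ATG can also be a start codon, as in 1103 of all 35116 windows. GCATGCGC, for NRF1, was in 15.4% against 3.1%, CCGGAAG, for ETS factors, in 15.4% against 10.3%, and GGGCGG, for SP1, in 65.4% against 45.0%. Matches of different motifs overlapped in 1 member window. The windows of 3 genes, NDUFA10 (minus strand of chr2:240025293-240025592), NDUFS6 (plus strand of chr5:1801157-1801456) and NDUFB1 (minus strand of chr14:92121657-92121956), are printed because their RNA moved in opposite directions in CR3 cells: NDUFA10 and NDUFS6 were lower and NDUFB1 was higher. Capitals mark the motif matches, and a match is only a match of letters.
NDUFA10: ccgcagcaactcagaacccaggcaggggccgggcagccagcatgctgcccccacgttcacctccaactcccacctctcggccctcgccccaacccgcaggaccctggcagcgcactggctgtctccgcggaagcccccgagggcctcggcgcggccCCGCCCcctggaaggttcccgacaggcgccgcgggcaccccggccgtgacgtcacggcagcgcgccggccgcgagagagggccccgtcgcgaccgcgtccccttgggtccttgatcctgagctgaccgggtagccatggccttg
NDUFS6: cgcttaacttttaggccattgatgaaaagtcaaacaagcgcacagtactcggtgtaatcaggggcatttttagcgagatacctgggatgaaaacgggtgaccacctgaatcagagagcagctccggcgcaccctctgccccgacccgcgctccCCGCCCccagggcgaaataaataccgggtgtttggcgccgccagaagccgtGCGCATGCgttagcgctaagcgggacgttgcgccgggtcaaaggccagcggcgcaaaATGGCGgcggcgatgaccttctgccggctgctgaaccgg
NDUFB1: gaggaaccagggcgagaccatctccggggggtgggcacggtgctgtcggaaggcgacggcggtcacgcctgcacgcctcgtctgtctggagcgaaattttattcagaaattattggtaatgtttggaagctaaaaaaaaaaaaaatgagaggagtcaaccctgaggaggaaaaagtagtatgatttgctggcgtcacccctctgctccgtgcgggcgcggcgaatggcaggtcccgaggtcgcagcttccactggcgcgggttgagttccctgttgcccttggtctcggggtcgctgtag

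The NDUFA10 window held 1 match, to the SP1 letters. The NDUFS6 window held 3, to the NRF1, SP1 and YY1 letters, and the NDUFB1 window held 0. The YY1 match of NDUFS6 lay in the 50 bases after the start in the sense direction, where ATG can also be a start codon. These 3 windows therefore differ in what they hold, also between the 2 genes that were lower. The genes that were higher differ too. The window of NDUFA1, not printed, held 3 matches, to the ETS and SP1 letters, and that of NDUFA3 held 0. Whether the motifs go with the direction of change was not tested.

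Levels are in normalized reads: a gene's reads over the size factor that the authors used for that library. Libraries held between 17418092 and 23548282 reads, of which the 48 genes took 0.261% to 0.277%. Much of the transcriptome differed in the CR3 libraries: 41.7% of the 15469 genes tested were called in CR3 against the mean of the other 3 groups. A gene was called when its Benjamini-Hochberg adjusted p, from limma over all genes tested, was under 0.05. Of 13 colon epithelium markers 8 were tested, 6 were lower and 0 higher. Their summed level was 46200 to 53600 in CR3 and 55930 to 63680 in the other libraries, and CDX1, VIL1, CEACAM5 and LGALS4 had 3, 19, 28 and 33 reads in all 12 libraries together. Of 13 genes that mark lines of embryonic kidney or with neuron-like features, 12 were analysed, 9 were tested, and 7 were higher and 0 lower. Their summed level was 2872 to 3108 in CR3 and 798.9 to 958.9 elsewhere. Among them, 1756 reads of IRS4 and 1578 of UCHL1 included 24 and 19 from outside CR3. PAX2 and ZIC2, of the same list, were not called, and 2199 of 2949 and 4036 of 5384 reads came from outside CR3. The marker lists were chosen with earlier results of these data known. Of 7 fibroblast markers only COL1A1 could be tested, and it was higher in CR3. PTPRC, which defines blood cells, had 0 reads. That the CR3 libraries come from HCT116 cells alone rests on the labels. With these markers their identity is in doubt, and it was not tested, which bears on every CR3 value below. These lists move with the CR3 label, as do the complex I changes below, and their part in those changes was not tested.

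Most complex I genes had small fold changes. In CR3 against the mean of mCherry, scramble and reverse, 9 of the 47 genes that could be tested were called, 3 higher and 6 lower, beside 41.7% of all genes tested (20.8% higher and 20.9% lower). The readthrough gene NDUFC2-KCTD14 had 2 reads in all libraries and did not reach the filter of 10 reads in 3 libraries. The largest called change was that of NDUFB1, 20.3% higher. The median log2 fold change of the 47 was -0.04, against 0.01 for all genes tested, and the median size of change regardless of sign was 0.08 against 0.17. Only NDUFA4L2, which was not called, passed a log2 change of 0.3 in either direction (2.13% of the members against 28.7% of all genes). Of the 47 genes, 44 had a mean between 200 and 5000 normalized reads, where 44.2% of 9297 genes were called (18.3% higher, 25.9% lower), with a median change of 0.13 regardless of sign. All 9 called members lay in that range.

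The direction of this split depends on scaling, for the members as for all genes. With libraries scaled to their total reads instead, 9 members were higher and 2 lower, beside 32.5% of all genes tested higher and 12.4% lower, and the median of the 47 was 0.05 in place of -0.04. The median of all genes moved with it, from 0.01 to 0.10. NDUFA10 and NDUFB9 were the 2 still lower, and NDUFB1, NDUFA3 and NDUFA1 were still higher. The members that were higher numbered 1 without CR3 replicate 1.

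**Figure D1:**
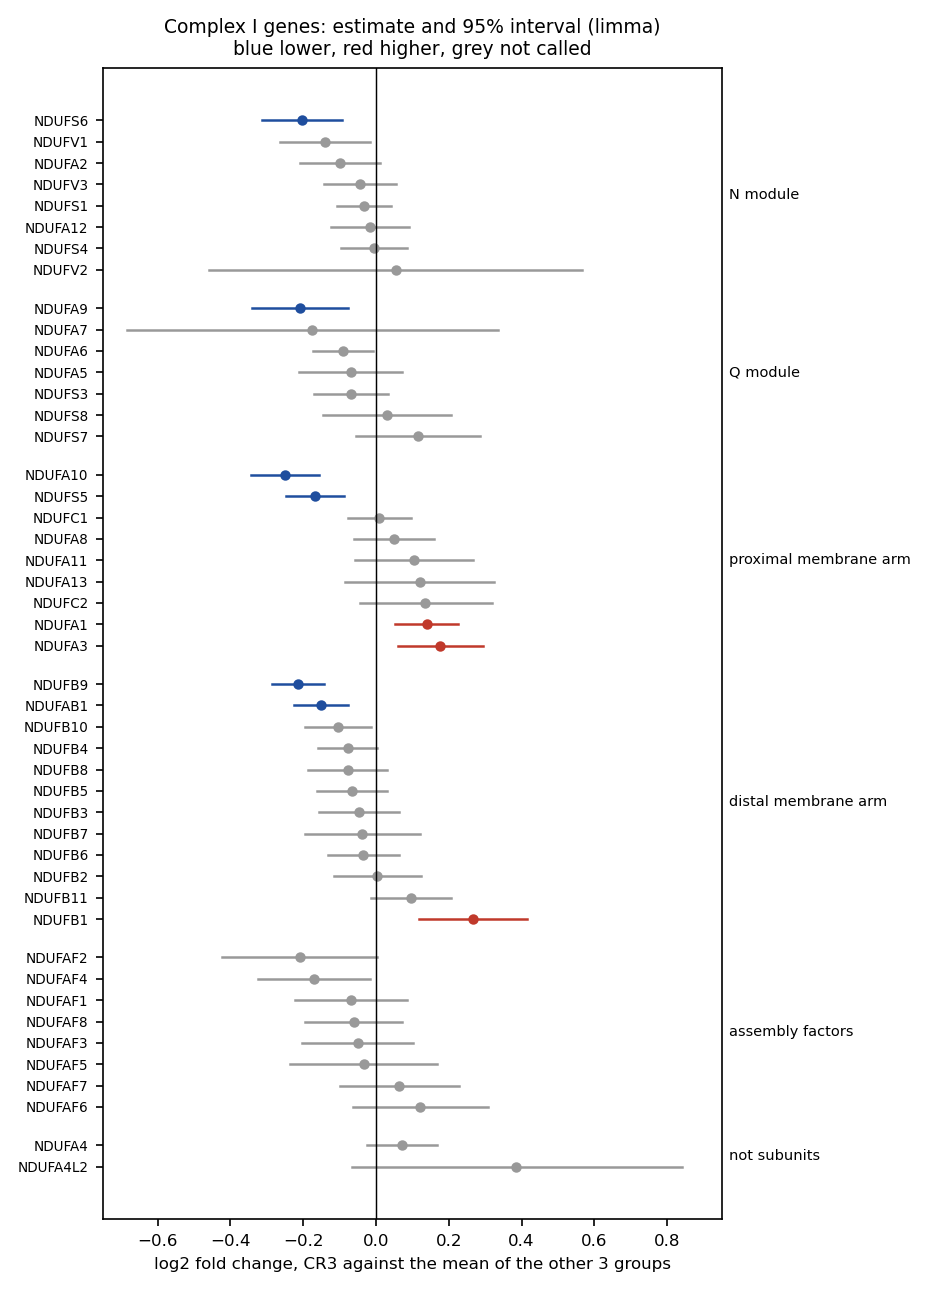
Log2 fold change (horizontal axis) of 46 of the 47 tested complex I genes in CR3 cells against the mean of the other 3 groups, by role, as the limma estimate (point) with its 95% interval (line), red for genes called higher, blue for genes called lower and grey for the rest. The estimates lie between -0.25 for NDUFA10 and 0.39 for NDUFA4L2, and the widest intervals belong to the genes with the fewest reads, NDUFV2, NDUFA7 and NDUFA4L2.

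The summed level of the 48 genes was 52901 ± 1150 normalized reads in mCherry, 51043 ± 693 in CR3, 53956 ± 497 in scramble and 51887 ± 468 in reverse (mean ± SD, n = 3 libraries each). The CR3 libraries (50545 to 51835) lay below those of scramble (53608 to 54526), and overlapped those of mCherry (51743 to 54033) and reverse (51451 to 52382). This order depends on scaling. As a share of each library's reads, CR3 (0.273% to 0.277%) overlapped scramble (0.27% to 0.274%). The share was 0.261% to 0.273% in mCherry and 0.261% to 0.264% in reverse. For single genes, all 3 CR3 libraries were above all 9 others in 1 of the 47, NDUFA3, where 13.8% of all genes tested were so placed. They were below all 9 in 5, namely NDUFS6, NDUFA10, NDUFS5, NDUFAB1 and NDUFB9, where 13.4% of all genes were. The other 41 overlapped.

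In the N module, the tip that binds NADH, 1 of 8 genes was lower, 0 were higher and the median log2 change was -0.04. Of all genes tested, 20.9% were lower and 20.8% higher. The gene that fell was NDUFS6 (chromosome 5, 1801400 to 1816605), a small zinc-binding subunit at the joint of the N module. It had 924, 983 and 1024 normalized reads in mCherry, 795, 894 and 904.5 in CR3, 980.2, 1038 and 1091 in scramble, and 949.9, 994 and 967 in reverse. Every CR3 library was thus below the lowest of the others. Its log2 fold change was -0.20 ± 0.05 (SE), with an adjusted p of 0.00483 in limma, and it was no longer called without CR3 replicate 1 or with scaling to library totals.

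NDUFV1 (chromosome 11, 67605653 to 67612554) carries the flavin that accepts the electrons of NADH. Its levels were 2305, 2458 and 2090.0 in mCherry, 2322, 1887 and 2164 in CR3, 2492, 2330.0 and 2320.0 in scramble and 2217, 2454 and 2356 in reverse. CR3 replicate 2 was the lowest library, while CR3 replicate 1 lay among the controls. The log2 change of -0.14 ± 0.06 had an adjusted p of 0.0655 in limma and was called without CR3 replicate 1, without mCherry replicate 3 and with upper-quartile scaling.

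NDUFS1 (chromosome 2, 206114817 to 206159603), the largest core subunit, holds several of the iron-sulfur clusters. It stood at 3376, 3509 and 3409 in mCherry, 3246, 3370.0 and 3369 in CR3, 3464, 3447 and 3294 in scramble and 3517, 3317 and 3315 in reverse. The groups overlapped, with CR3 replicate 1 the lowest library. Its log2 change was -0.03 ± 0.035, with a 95% interval from -0.11 to 0.04, and it turned to 0.06 with library totals. NDUFS4, NDUFA12, NDUFV3 and NDUFA2, accessory subunits of this module, had log2 changes of -0.01, -0.02, -0.04 and -0.10, none of them called.

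NDUFV2, the iron-sulfur partner of NDUFV1, was almost without reads. Complex I holds it in equal number with NDUFV1. It was listed with 15 to 33 reads per library, 299 in all, where NDUFV1 had 28646. Its levels were 29.2, 17.7 and 23.5 in mCherry, 14.0, 28.9 and 34.0 in CR3, 24.9, 23.4 and 21.9 in scramble and 17.7, 25.6 and 27.0 in reverse. The libraries of all groups overlapped, and the log2 change of 0.05 had a 95% interval from -0.46 to 0.57. Within these limits no difference was detectable at this depth, and leaving out single libraries moved the estimate from -0.19 to 0.42.

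In GENCODE release 29 (GRCh38) the gene lies on chromosome 18, 9102630 to 9134345, and 75.3% of its main transcript lies in exons that AP005263.1, a processed transcript, shares on the same strand. AP005263.1 had 0 reads. A processed pseudogene, NDUFV2P1, lies on the minus strand of chromosome 19, 53223973 to 53224879. Of the 747 bases of the NDUFV2 coding sequence, 708 aligned to it with 98.0% identity and 14 differences, and the longest identical run was 243 bases. Bases 301 to 450 of the coding sequence and the matching bases of the pseudogene transcript are printed to show how few positions tell the transcripts apart, with the differing bases in capitals.
NDUFV2: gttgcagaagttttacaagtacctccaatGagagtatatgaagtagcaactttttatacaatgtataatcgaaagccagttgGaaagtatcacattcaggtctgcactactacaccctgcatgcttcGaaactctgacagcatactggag
NDUFV2P1: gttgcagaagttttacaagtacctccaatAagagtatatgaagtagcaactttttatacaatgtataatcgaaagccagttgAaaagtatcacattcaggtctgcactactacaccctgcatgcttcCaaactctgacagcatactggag

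These 150 bases hold 3 differences. NDUFV2P1 itself had 11 to 33 reads per library and 285 in all, close to the 299 of NDUFV2. It was the only one of 62 NDUF pseudogenes with more than 21 reads, and 46 had none. How reads fitting more than 1 gene were counted is not stated, and the part of the pseudogene and of the shared exons in the NDUFV2 value was not tested.

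NDUFA7 in the Q module also had few reads, 8 to 19 per library. No stretch of 50 bases of its transcripts was shared with an NDUF pseudogene, and 75.9% of its main transcript lies in same-strand exons of AC010323.1, which had 5 reads. Per kilobase of main transcript, and as a mean of 12 libraries, NDUFA7 stood at 21.2 normalized reads and NDUFV2 at 25.5, where the 37 subunits had a median of 1140.0. Other genes with shared exons had higher levels. NDUFB8 has 71.7% of its main transcript in exons of AL133352.1, which had 1 read, and stood at 1140.0. NDUFA13, with 59.0% shared, stood at 489.5. The part of shared exons in these levels was not tested.

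**Figure D2:**
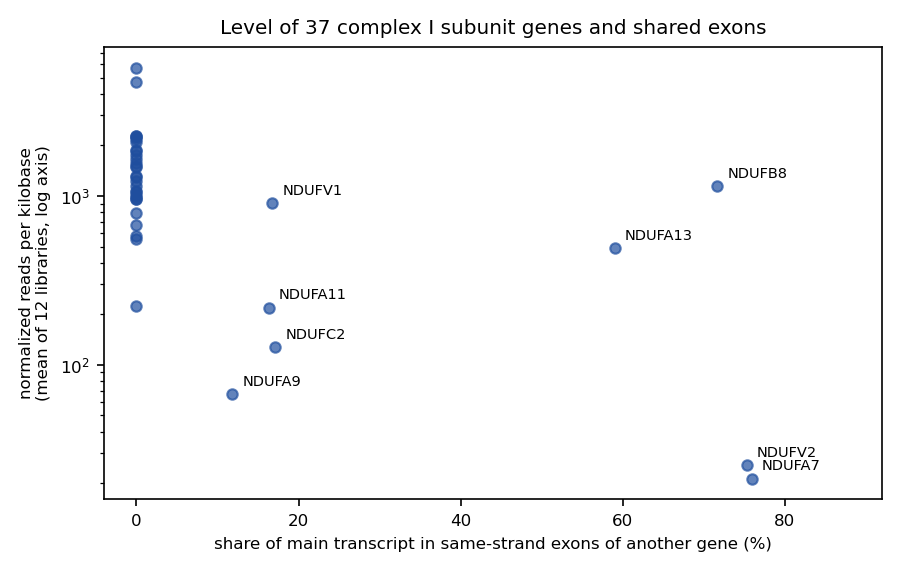
Mean level of the 37 subunit genes over 12 libraries in normalized reads per kilobase of main transcript (vertical log axis) against the share of that transcript lying in same-strand exons of another gene (horizontal axis, GENCODE release 29). NDUFV2 and NDUFA7 sit alone at the lower right, at 25.5 and 21.2 reads per kilobase, while NDUFB8 has a similar share of shared exons and 1140.0 reads per kilobase.

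Apart from those genes, subunit levels per kilobase ran from 66.7 for NDUFA9, whose main transcript is 8363 bases long, to 4725 for NDUFS5 and 5746 for NDUFB9. The distal arm had the highest median of the modules, 1667 normalized reads per kilobase, against 998 in the N module, 1094 in the Q module and 956 in the proximal arm. The 8 assembly factors had a median of 224.4, from 45.4 for NDUFAF5 to 1350.0 for NDUFAF8. The order depends on the length used. Per kilobase of all annotated exons NDUFS5 stood at 4725 and was the highest of the members, and NDUFB9 stood at 994.9, below NDUFA1 at 2264, NDUFA8 at 1873, NDUFB7 at 1853, NDUFB10 at 1473 and NDUFAB1 at 1203.

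In the Q module, where electrons reach ubiquinone, 1 of 8 genes was lower, 0 were higher and the median log2 change was -0.07. These counts stand beside 20.9% of all genes tested lower and 20.8% higher. NDUFA9 (chromosome 12, 4649095 to 4694317), an accessory subunit at the joint of the arms, had 548, 594 and 500.4 normalized reads in mCherry, 493, 515 and 486 in CR3, 619.6, 617 and 613 in scramble and 543, 537 and 623 in reverse. The CR3 libraries were low, but mCherry replicate 3 lay between them. Its log2 change was -0.21 ± 0.06 with an adjusted p of 0.013 in limma. The call was lost without CR3 replicate 3 and with library totals.

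The core subunits NDUFS3, NDUFS7 and NDUFS8 were not called. NDUFS3 (chromosome 11, 47565336 to 47584562), the core subunit with which assembly begins, had 1473, 1506 and 1318 in mCherry, 1448, 1371 and 1492 in CR3, 1504, 1637 and 1542 in scramble and 1469, 1576 and 1558 normalized reads in reverse. Its CR3 libraries lay within the range of mCherry, overlapped reverse and were below scramble, with a log2 change of -0.07 ± 0.05.

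NDUFS7 (chromosome 19, 1383527 to 1395589) carries the last iron-sulfur cluster before ubiquinone. It stood at 941, 856 and 788 normalized reads in mCherry, 1039, 803 and 967 in CR3, 833, 908 and 920.5 in scramble and 818, 952 and 743 in reverse. CR3 held the 2 highest of the 12 libraries and also a low one, and the log2 change of 0.115 ± 0.08 had an adjusted p of 0.274 in limma. It was called without CR3 replicate 2 and with library totals. NDUFS8 (chromosome 11, 68030617 to 68036644), its neighbour with iron-sulfur clusters of its own, had 1427, 1453 and 1114 in mCherry, 1504, 1111 and 1358 in CR3, 1220.0, 1356 and 1325 in scramble and 1227, 1302 and 1202 in reverse. In NDUFS8 the CR3 libraries span the range of all the others, and the sign of its log2 change (0.03 ± 0.08) turned when single libraries were left out. The accessory subunits NDUFA5 and NDUFA6 had log2 changes of -0.07 and -0.09, neither called.

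In the proximal membrane arm 2 of 9 genes were higher and 2 lower, near the shares of all genes tested (20.8% higher and 20.9% lower), and 7 of the 9 estimates were above 0 (median log2 change 0.105). NDUFA10 (chromosome 2, 239892450 to 240025402), an accessory subunit built like a nucleoside kinase, had 1775, 1760.0 and 1619 normalized reads in mCherry, 1466, 1581 and 1459 in CR3, 1746, 1821 and 1945 in scramble and 1828, 1778 and 1803 in reverse. All CR3 libraries were below all others. Its log2 change of -0.25 ± 0.04, a level that fell by 15.9%, had an adjusted p of 0.000222 in limma and was called under each of the 23 alternatives run. NDUFS5 (chromosome 1, 39026318 to 39034636), which faces the intermembrane space, had 2573, 2608 and 2764 in mCherry, 2445, 2396 and 2272 in CR3, 2692, 2749 and 2873 in scramble and 2553, 2560.0 and 2588 in reverse. Here too the CR3 libraries were the 3 lowest, with a log2 change of -0.17 ± 0.04, an adjusted p of 0.00172 in limma and the call lost with library totals.

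A pair of small single-pass membrane subunits of the same arm went the other way. NDUFA3 (chromosome 19, 54102728 to 54109257) had 726, 761 and 684 normalized reads in mCherry, 858.5, 789.5 and 852 in CR3, 773, 740.4 and 710.1 in scramble and 688.5, 778 and 774 in reverse. The CR3 libraries were the 3 highest of the 12. Its log2 change was 0.18 ± 0.055, with an adjusted p of 0.0161 in limma, and was not called without CR3 replicate 1 or without CR3 replicate 3. NDUFA1 (chromosome X, 119871487 to 119876662) had 1743, 1771 and 1704 in mCherry, 1942, 1896 and 1752 in CR3, 1669, 1789 and 1781 in scramble and 1551, 1597 and 1618 in reverse. CR3 replicate 3 lay among the controls and the reverse libraries were the lowest. The log2 change of 0.14 ± 0.04 had an adjusted p of 0.0114 in limma, lost without CR3 replicate 1 or CR3 replicate 2. NDUFC1, NDUFA8, NDUFA11, NDUFA13 and NDUFC2 had log2 changes of 0.01 to 0.14, none called.

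In the distal membrane arm, the far end of the proton-pumping part, 1 of 12 genes was higher, 2 were lower and the median log2 change was -0.06. Among all genes tested 20.8% were higher and 20.9% lower. NDUFB9 (chromosome 8, 124539101 to 124580648), a small accessory subunit, had 4099, 4315 and 4224 normalized reads in mCherry, 3632, 3730.0 and 3568 in CR3, 4283, 4419 and 4486 in scramble and 3951, 4154 and 4160.0 in reverse. All CR3 libraries were below all others. Its log2 change of -0.215 ± 0.034, a level that fell by 13.9%, had an adjusted p of 6.99e-05 in limma and was called under each of the 22 alternatives run. NDUFAB1 (chromosome 16, 23581002 to 23596356), the mitochondrial acyl carrier protein, which also serves fatty acid synthesis, had 1951, 1934 and 1895 in mCherry, 1795, 1776 and 1761 in CR3, 2050.0, 1953 and 2051 in scramble and 2037, 1973 and 1922 in reverse. These CR3 libraries were again the 3 lowest and close together (1777 ± 16.7, n = 3), with a log2 change of -0.15 ± 0.035, an adjusted p of 0.00253 in limma and the call lost with library totals.

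NDUFB1 (chromosome 14, 92116122 to 92121917), a small subunit with a single membrane span, had the largest called change of the 47. It had 562, 523 and 471.5 normalized reads in mCherry, 591, 629.8 and 512 in CR3, 507, 455 and 462 in scramble and 436, 454 and 446 in reverse. CR3 overlapped mCherry and was above every scramble and reverse library. The log2 change of 0.27 ± 0.07 had an adjusted p of 0.00571 in limma, lost without CR3 replicate 2. The other 9 genes of the arm had log2 changes from -0.105 for NDUFB10 to 0.10 for NDUFB11 and were not called.

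**Figure D3:**
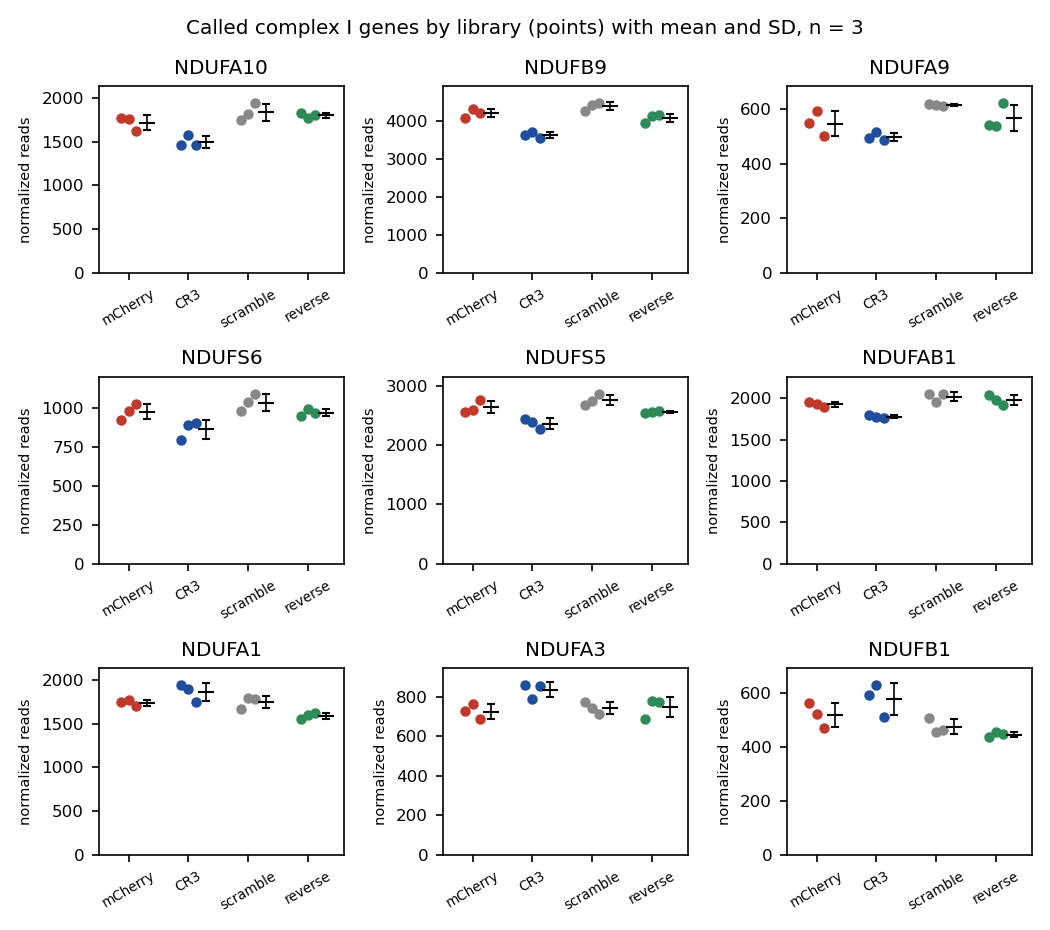
Normalized reads (vertical axes, each starting at 0) of the 9 called complex I genes in each library (points) with the mean and SD of each group of 3 (black). The CR3 libraries of NDUFA10, NDUFB9, NDUFS6, NDUFS5 and NDUFAB1 lie below all others and those of NDUFA3 above all others, while NDUFA9, NDUFA1 and NDUFB1 overlap at least 1 other group.

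For 3 of the called genes a gene on the opposite strand shares bases. The strand setting of the counting was not given in the sources used here. Thus reads of such pairs may not be told apart. TFPT overlaps NDUFA3 on the opposite strand over 157 bases and was itself higher in CR3 (log2 change 0.28 ± 0.10, adjusted p = 0.0354 in limma). RNF113A overlaps NDUFA1 over 341 bases (0.19 ± 0.11, not called) and MTSS1 overlaps NDUFB9 over 677 bases (0.26 ± 0.11, not called). The partners had 1888, 1939 and 1507 reads in all, against 9553 for NDUFA3, 21795 for NDUFA1 and 51301 for NDUFB9.

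Of the assembly factors, 0 of 8 were called by limma and 0 with voom weights, 1 had an unadjusted p under 0.05 and the median log2 change was -0.06. Among all genes tested in limma 41.7% were called and 49.0% had such an unadjusted p. The estimates ran from -0.21 for NDUFAF2, a chaperone of late assembly, to 0.12 for NDUFAF6. NDUFAF4, which works with NDUFAF3 on early intermediates, had the unadjusted p of 0.0328 and an adjusted p of 0.0724. NDUFA4, now counted to complex IV, had a log2 change of 0.07 ± 0.05. NDUFA4L2, its hypoxia-induced relative, had 7.20 to 15.8 normalized reads in the 12 libraries, and its log2 change of 0.39 ± 0.215 was not called.

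Against each group alone, the counts were of the same order. Against mCherry 1 member was higher (NDUFA3) and 5 lower (NDUFA10, NDUFA2, NDUFB9, NDUFS5, NDUFS6), beside 28.6% of all genes called (14.1% higher, 14.5% lower). The 5 became 1 without CR3 replicate 3 and 3 without mCherry replicate 1 or 2, and NDUFA3 was not called without CR3 replicate 1 or 3 or mCherry replicate 1 or 3. Against scramble 1 was higher (NDUFB1) and 9 lower (NDUFA10, NDUFA6, NDUFA9, NDUFAB1, NDUFAF4, NDUFAF8, NDUFB9, NDUFS5, NDUFS6), beside 37.8% (19.1% higher, 18.6% lower). The number higher was 0 without scramble replicate 2 or 3, and 2 without mCherry replicate 3 or reverse replicate 1. Against reverse 3 were higher (NDUFA1, NDUFA4, NDUFB1) and 3 lower (NDUFA10, NDUFAB1, NDUFB9), beside 33.6% (16.9% higher, 16.7% lower). The number lower was 7 without mCherry replicate 3 and 5 without CR3 replicate 2.

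These comparisons share the CR3 libraries, so their values are set side by side. NDUFA10 had log2 changes of -0.19 against mCherry, -0.29 against scramble and -0.26 against reverse. For NDUFB9 they were -0.21, -0.27 and -0.17. Both genes were lower against each group. NDUFB1 stood at 0.15 against mCherry, where it was not called, 0.28 against scramble and 0.37 against reverse.

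Between the groups without CR3, 0 members were called by limma. In scramble against mCherry 1.6% of all genes were called (0.795% higher, 0.802% lower), and 4 members (8.51%) had an unadjusted p under 0.05, against 14.6% of all genes. In reverse against mCherry the share was 0.672% (0.265% higher, 0.407% lower), and 3 members (6.38%) had such a p, against 9.64% of all genes. In reverse against scramble it was 0.478% (0.291% higher, 0.187% lower), and 7 members (14.9%) had such a p, against 7.26% of all genes. NDUFAF8, a small assembly factor, came nearest, with 464, 442 and 443 normalized reads in mCherry and 526.5, 588 and 557 in scramble. The scramble libraries were all above the mCherry libraries, with a log2 change of 0.31 ± 0.08 and an adjusted p of 0.055 in limma. It was called with voom weights (adjusted p = 0.0414), with ambiguous genes kept, and without CR3 replicate 1, CR3 replicate 2, reverse replicate 2 or reverse replicate 3. NDUFA4 was called lower in reverse against mCherry without mCherry replicate 3 (adjusted p = 0.0139 in limma). In reverse against scramble 40 of the 47 estimates were below 0 (85.1%, against 50.6% of all genes), with a median of -0.06 where all genes had -0.002. In scramble against mCherry 32 were above 0 and 15 below (31.9%, against 50.9%). In reverse against mCherry 29 were below (61.7%, against 50.4%). These comparisons share libraries, and the shifts were not tested.

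The rest of the respiratory chain gives the scale. Of the 7 complex I subunits encoded in mitochondrial DNA, 6 were higher in CR3 against the mean of the other groups and 0 lower, with a median log2 change of 0.23. MT-ND5, a proton-pumping subunit, led with 0.42 ± 0.06 and MT-ND4, its neighbour in the membrane arm, followed with 0.25 ± 0.07. The control groups were not alike here. Against mCherry 0 of the 7 were called in limma and 0 had an unadjusted p under 0.05 (median -0.08). The shares of all genes were 28.6% and 38.4%. Against scramble 6 were higher and against reverse 6, beside 19.1% and 16.9% of all genes. In scramble against mCherry 6 were lower, beside 0.802% of all genes, and in reverse against mCherry 4 were lower, beside 0.407%. The summed level was 163400 to 180200 normalized reads in CR3, 176400 to 183300 in mCherry, 105100 to 137800 in scramble and 132400 to 153200 in reverse. CR3 and mCherry overlapped, and scramble and reverse were below both.

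Among 13 complex I assembly factors with other names, 1 was higher and 5 lower (median -0.13). NUBPL, which delivers iron-sulfur clusters to complex I, had 180.3 ± 2.97 normalized reads in CR3 and 113.4 ± 15.2 in mCherry, a log2 change of 0.67 ± 0.10 against the mean of the other groups. FOXRED1, an oxidoreductase-like factor, fell by 0.33 on the log2 scale. Of 13 iron-sulfur assembly genes, NUBPL among them, 12 were tested, 2 were higher and 3 lower (median -0.01). GLRX5, a glutaredoxin of the pathway, fell by 0.24 on that scale.

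Complex II had 3 of 8 genes lower (median -0.11), led by SDHD at -0.22 and SDHB at -0.19, its membrane anchor and iron-sulfur subunit. In complex III 6 of 9 were lower (median -0.15), led by CYC1 at -0.305 and UQCRFS1, the Rieske protein, at -0.275. In complex IV 1 of 10 was lower, COX4I1 at -0.20 (median -0.07). In ATP synthase 10 of 15 were lower (median -0.15), led by ATP5MC1 at -0.28 and ATP5F1B at -0.23. No gene tested in these lists of complexes II to IV and ATP synthase was called higher in CR3 against the mean of the other groups. The lists held nuclear genes only, so subunits of these complexes encoded in mitochondrial DNA were not examined here. Of 12 regulators of mitochondrial biogenesis 11 were tested and 6 were lower (median -0.17), among them TFB2M, a mitochondrial transcription factor, at -0.39 and the transcription factor NRF1 at -0.29. Against mCherry alone 1 of the 11 was lower (median -0.09), beside 14.5% of all genes. Against scramble 5 were lower and 1 higher, beside 18.6% and 19.1%, and against reverse 5 were lower, beside 16.7%. The counts against the mean of the other groups stand beside 20.9% of all genes lower and 20.8% higher, and differences between the lists were not tested. All list counts were made with the authors' size factors only. With libraries scaled to their totals the median log2 change of all genes was 0.10 in place of 0.01, and the lists were not counted under that scaling.

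**Figure D4:**
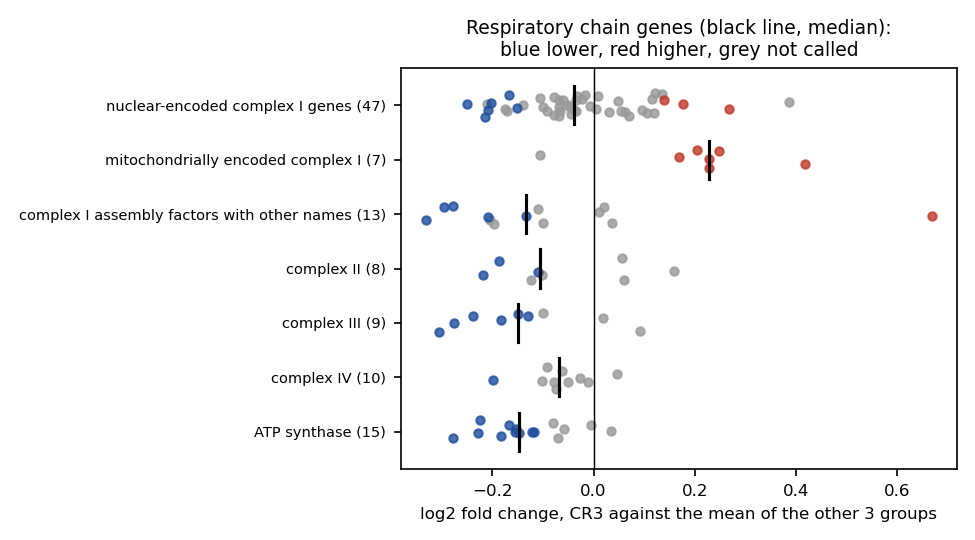
Log2 fold change in CR3 cells against the mean of the other 3 groups (horizontal axis) for each tested gene of the nuclear-encoded complex I genes and of the other lists of the respiratory chain (number tested in brackets), red for higher, blue for lower and grey for not called, with the list median as a black line. The nuclear-encoded complex I genes scatter around a median of -0.04, the mitochondrially encoded ones around 0.23.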

How the data were processed

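PolyA RNA was sequenced in 12 libraries, 3 for each of 4 groups, with replicate numbers from the sample titles. STAR, Salmon and featureCounts for alignment and counting, DESeq2 and edgeR, and FastQC, MultiQC, Trim Galore and GATK are named with GRCh38, per the submitters' processing notes. Tool versions, the annotation release and the settings for strand and multi-mapping reads were not given in the sources used here. The deposited values form another unit: read counts that the authors divided by a library-wise size factor, as the values themselves show, with the decimal mark lost from every value of 1 or more. All 265152 non-zero values were whole multiples of the library's worth of 1 read at some power of 10 (100.0%, tolerance 1e-07). The power was chosen per gene by likelihood with the group labels. A second power came within a likelihood ratio of 20 in 1731 cells (0.653%), whose genes were dropped. Of the 18138 cells that kept their mark, 98.43% were read correctly with it hidden. All of these cells hold 1 read, so this check does not reach the levels of most members. None of the 48 genes had an ambiguous cell with the labels, and 0 changed when the labels were not used, though only 12 were then left to test.

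Since the unit is not counts, edgeR and DESeq2 were not run here. limma 3.58.1 in R 4.3.3, with a mean-variance trend, was fitted to log2(normalized reads + 1) of all 12 libraries and 4 groups, for genes with at least 10 reads in 3 libraries. Fold changes on this scale understate those of low genes. P-values are two-sided, adjusted by Benjamini-Hochberg over 15469 genes within each of 7 comparisons and called under 0.05; the script was tested on simulated data. Symbols and positions are from GENCODE release 29 (GRCh38), which held 52526 of the 63677 identifiers. Levels per kilobase use the transcript with the longest coding sequence. Members were chosen by symbol alone but, like the roles and lists, with earlier results of these data known. By rule, full values are given for called members (up to 12) and 7 core subunits, of which 1 is not reported here, other members by range, and the 2 largest called changes of a list. Alternatives were other scalings, pseudocounts, filters, weights, decimal placing, a replicate block and leaving out each library. Rebuilding and figures used Python 3.11.15.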

Additional observations from a re-analysis of the deposited data

How the results depend on the processing

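With libraries scaled to their totals, members higher and lower numbered 9 and 2 in CR3 against the mean of the others, 3 and 1 against mCherry, 4 and 5 against scramble, and 7 and 1 against reverse. The shares of all genes were 32.5% and 12.4%, 23.1% and 8.18%, 29.1% and 11.6%, and 26.3% and 9.97%. The log2 changes of NDUFS1 and NDUFS3 turned to 0.057 and 0.020 with the same scaling. The median of the members minus that of all genes was -0.045 in either scaling. Placing decimals without group labels leaves 12 members to test by construction, with 1 higher and 2 lower, 0 and 2, 1 and 5, and 1 and 1 in the same 4 comparisons, and 1 called in scramble against mCherry. Upper-quartile scaling gave 6 lower against reverse. Against mCherry, the number higher was 0 without a trend and with only the groups compared, and the number lower was 3 without a filter and 2 with only the groups compared. Fits of only the groups compared gave 2 higher against scramble and 1 member called in reverse against scramble. In scramble against mCherry voom called 1, and keeping ambiguous genes 1. The cause of these shifts was not tested, apart from the fewer members tested without labels. Fits of only the groups compared were not run for CR3 against the mean of the others, which uses all groups.

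Leaving out single libraries gave 1 to 3 higher and 5 to 8 lower in CR3 against the mean, 0 to 1 and 1 to 5 against mCherry, 0 to 2 and 7 to 11 against scramble, and 2 to 4 and 2 to 7 against reverse. It gave 0 to 1 called members in scramble against mCherry, 0 to 1 in reverse against mCherry, and 0 in reverse against scramble, whichever library was left out. The estimate of NDUFS8 ran from -0.067 to 0.151 and that of NDUFV2 from -0.187 to 0.424. With 1 library fewer, the smaller group is assumed to vary like the others.

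Libraries with the same replicate number did not deviate together (18 pairs, r from -0.123 to 0.06). The labels do not say whether libraries that share a number were handled together, and these values cannot settle it. With a replicate block, members higher and lower numbered 3 and 6 in CR3 against the mean, 0 and 4 against mCherry, 1 and 9 against scramble and 3 and 4 against reverse. Depth limits NDUFV2, NDUFA7 and NDUFA4L2, at 8 to 33 reads per library, to intervals wider than any called change.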
